A study of Mus musculus with 32 samples.

Results

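The genes described here are 9 transcription factor genes of the mouse, Gata2, Gata3, Gata6, Snai1, Snai2, Twist1, Twist2, Zeb1 and Zeb2, taken by name from the 55806 gene identifiers in the count tables. All 9 were matched to 1 Ensembl identifier each and all 9 passed the filter on low counts in every comparison. RNA was measured in 32 libraries of embryonic kidney, in 11 groups, from mice that carry small changes in the YEATS domain of ENL (gene Mllt1), a reader of acetylated histones that is mutated in Wilms tumor. Six2-TGCtg/+ mice express a GFP-Cre fusion in nephron progenitors, and Foxd1GC/+ mice express it in stromal progenitors. Whole E18.5 kidneys of the Six2 line came as ENLWT (Six2-TGCtg/+;Enl+/+, 2 libraries), Six2-ENLT1 (Six2-TGCtg/+;EnlT1/+, 2) and Six2-ENLT3 (Six2-TGCtg/+;EnlT3/+, 2), where T1 inserts a few residues into the YEATS domain and T3 replaces a few of its residues by a lysine. Sorted Six2 cells came as ENLWT and Six2-ENLT1 with 3 libraries each at E14.5 and at E18.5, sorted Foxd1 cells at E18.5 as ENLWT (Foxd1GC/+;Enl+/+) and Foxd1-ENLT1 (Foxd1GC/+;EnlT1/+) with 4 each, and whole E18.5 kidneys of the Foxd1 line as the same genotypes with 3 each. Every group, controls included, carries 1 Cre allele, and the mutants hold 1 mutant Enl allele that is switched on in the Cre lineage and its descendants only. The Foxd1GC allele replaces a working copy of Foxd1, so that all Foxd1 groups are heterozygous for it. The lines were kept on, or backcrossed to, a C57BL/6J background. The Six2 transgene is a bacterial artificial chromosome insertion, and a whole kidney also holds cells outside the Cre lineage. The sorted cells carry a tdTomato (tdT) reporter that Cre turns on and were taken as tdT+. The labels do not say whether libraries of a group came from separate embryos, so p values measure only the spread between these libraries.

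Gata factors are zinc finger proteins that bind the sequence from which they take their name. Gata2 is known for blood and endothelial precursors and the urogenital tract, Gata3 is required in the nephric duct and ureteric bud, and Gata6 is best known in endoderm and heart. The Snai, Twist and Zeb factors are best known for the epithelial-mesenchymal transition. Snai1 and Snai2 (Slug) and the Zeb proteins repress epithelial genes such as the E-cadherin gene Cdh1 through E-boxes, and Twist1 and Twist2 are basic helix-loop-helix proteins that pair with E proteins. In the kidney the nephron forms by the reverse step, in which Six2+ mesenchyme becomes epithelium, while the Foxd1+ stroma remains mesenchymal.

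The members are protein-coding genes of separate loci (GRCm38, GENCODE vM21). Gata2 (ENSMUSG00000015053) lies at chr6:88193891-88207032 and Gata3 (ENSMUSG00000015619) at chr2:9857078-9890034, and Gata6 is ENSMUSG00000005836. The Snai genes are Snai1 (ENSMUSG00000042821) at chr2:167538195-167542814 and Snai2 (ENSMUSG00000022676) at chr16:14705852-14709385. Twist1 (ENSMUSG00000035799) lies at chr12:33957671-33959829 and Twist2 (ENSMUSG00000007805) at chr1:91801461-91848028. The Zeb genes are Zeb1 (ENSMUSG00000024238) and Zeb2 (ENSMUSG00000026872), the latter at chr2:44983632-45117395. Gata3 and Zeb2 are on the reverse strand and the other 7 on the forward strand. Other annotated genes cover 46.5% of the exon length of Twist2, 5.83% of that of Gata3 and at most 3.3% of that of any other member.

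The stretches before the start sites are shown for Gata2, Twist1 and Twist2, which rose together in mutant E14.5 cells, and for Snai1, the one listed member with the E-box that Snai and Zeb proteins bind. Each is the 250 bases upstream of an annotated start (RefSeq, GRCm38.p6), 5′ to 3′ on the strand of the gene. Capitals mark, on either strand, the E-box CACCTG and the letters of 2 common promoter elements, CCAAT of the CCAAT box and TATAAA of the TATA box. These are matches of letters only, and their use was not tested. None of the marked stretches overlap.
Gata2, upstream start, chr6:88193641-88193890, forward strand: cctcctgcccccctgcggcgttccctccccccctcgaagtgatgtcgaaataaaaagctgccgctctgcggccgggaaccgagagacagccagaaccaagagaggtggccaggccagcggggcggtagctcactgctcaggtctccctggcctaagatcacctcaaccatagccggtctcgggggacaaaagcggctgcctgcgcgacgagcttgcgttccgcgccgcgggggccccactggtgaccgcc
Gata2, downstream start, chr6:88198414-88198663, forward strand: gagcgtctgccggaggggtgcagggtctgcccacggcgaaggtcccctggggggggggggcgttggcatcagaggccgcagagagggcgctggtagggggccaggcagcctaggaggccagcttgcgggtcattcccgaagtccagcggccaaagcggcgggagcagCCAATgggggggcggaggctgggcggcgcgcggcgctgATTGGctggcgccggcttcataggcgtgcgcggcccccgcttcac
Snai1, chr2:167537945-167538194, forward strand: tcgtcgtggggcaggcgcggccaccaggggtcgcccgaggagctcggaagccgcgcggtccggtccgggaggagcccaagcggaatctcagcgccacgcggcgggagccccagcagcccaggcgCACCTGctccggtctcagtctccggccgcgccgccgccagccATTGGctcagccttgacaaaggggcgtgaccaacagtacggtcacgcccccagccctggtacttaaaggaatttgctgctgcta
Twist1, chr12:33957421-33957670, forward strand: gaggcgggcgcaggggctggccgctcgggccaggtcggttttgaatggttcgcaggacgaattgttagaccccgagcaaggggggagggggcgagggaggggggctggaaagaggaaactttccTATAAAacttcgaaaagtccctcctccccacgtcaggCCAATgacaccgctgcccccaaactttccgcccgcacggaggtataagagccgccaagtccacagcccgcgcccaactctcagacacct
Twist2, chr1:91801211-91801460, forward strand: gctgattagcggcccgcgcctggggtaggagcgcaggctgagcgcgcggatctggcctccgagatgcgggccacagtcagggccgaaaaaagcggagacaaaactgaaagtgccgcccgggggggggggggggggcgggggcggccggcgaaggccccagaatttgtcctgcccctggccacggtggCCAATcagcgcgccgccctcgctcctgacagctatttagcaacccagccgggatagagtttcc
The RefSeq table used here has 10 starts of 6 members (Gata2, Gata3, Snai1, Twist1, Twist2 and Zeb2). The E-box CACCTG lay 126 bases before the start of Snai1 and in no other window of a member, against 17.2% of all 32851 windows of the same length. The looser E-box CANNTG, of which CACCTG is a form, was likewise found in 1 of the 10 windows, against 66.2% of all windows. None of the 10 held AGATAA, searched with either A or T first and either A or G last, the letters that Gata factors bind, which 26.5% of all windows hold. CCAAT was found in windows of 5 members (Gata2, Snai1, Twist1, Twist2 and Zeb2), against 33.8% of all windows, and TATAAA in that of Twist1, 126 bases before the start, against 12.4%. Entries for Snai2, Gata6 and Zeb1 were not used here.

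Total counts ran from 2557443 in a library of sorted Foxd1 cells to 157266455 in one of whole Six2 kidneys, and 3 counts stand for about 1 CPM (counts scaled to the library total) in sorted Foxd1 cells but for at most 0.0446 CPM elsewhere. The lowest member count was 10, for Twist2 in a sorted Foxd1 ENLWT library. Mllt1, whose counts cannot tell the mutant from the wild-type transcript, had a level of 227.4, 224.6 and 232.8 CPM in sorted E14.5 ENLWT cells and 206.5, 207.5 and 200.2 CPM in Six2-ENLT1, and was not called in any of the 6 comparisons of a mutant with its control. By edgeR's quasi-likelihood test it was lower, under 1.5-fold, in these sorted E14.5 cells (log2 difference -0.14, adjusted p = 0.0436). The same held in whole Six2-ENLT3 (-0.33, adjusted p = 0.0238) and Foxd1-ENLT1 kidneys (-0.27, adjusted p = 0.00102). The sort labels held in the markers: a list of 12 stromal genes summed to 7314 to 9926 CPM in sorted Foxd1 ENLWT cells and to 353.6 to 601.1 CPM in sorted Six2 ENLWT cells at E18.5, while 8 nephron progenitor genes summed to 240.8 to 329.8 and 644.1 to 821.3 CPM. No marker of either list was at 0 in any group, and sorted Foxd1 ENLWT cells also held 537.2 to 921.5 CPM of a podocyte list and 112.1 to 282.8 CPM of a macrophage list. Within groups, the libraries correlated at 0.974 to 0.993 over 33 pairs.

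In control cells, most of the 9 genes stood higher in stroma than in the nephron lineage. At E18.5, 8 of the 9 (Gata2, Gata3, Gata6, Snai1, Snai2, Twist1, Twist2 and Zeb2) were higher in sorted Foxd1 than in sorted Six2 ENLWT cells at an adjusted p under 0.01 and over 2-fold, where 27.2% of all genes were called in that direction and 55.4% in either. The median log2 difference was 3.34 for the members and -0.10 for all 14869 genes tested. The lineages were sequenced in different runs with different read lengths, so that run and lineage cannot be told apart in these differences. The widest was that of Gata6, which stood at 47.79, 55.44, 50.26 and 40.15 CPM in the 4 Foxd1 libraries and at 0.9348, 1.999 and 1.377 CPM in the 3 Six2 libraries. That is a log2 difference of 5.29 ± 0.21 (SE, adjusted p = 1.18e-15, by the quasi-likelihood test of edgeR, Benjamini-Hochberg adjusted, as for every adjusted p here unless another tool is named). Snai2 followed at 4.38 ± 0.12 (adjusted p = 1.07e-18), with Twist1 at 4.12 ± 0.23, Twist2 at 4.11 ± 0.33 and Snai1 at 3.34 ± 0.16. Gata3, Zeb2 and Gata2 differed less, by 2.31, 1.52 and 1.40 on the log2 scale. Zeb1 was the exception at 0.33 ± 0.08 (adjusted p = 0.000878), under 2-fold, and at -0.01 without the low-count filter, which moved the median of all genes by -0.34. Epithelial genes that Snai and Zeb factors repress lay the other way: of the 18 on a list of them, 16 were tested and 15 were lower in Foxd1 cells (Dsp, -5.71, and Cdh1, -3.77), with a median of -2.88. Of the 55.4% of all genes that were called, 49.16% were higher in Foxd1 cells and the rest lower.

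Per length (CPM divided by exon length in kilobases, RPKM), Snai2 was the most abundant of the 9 in sorted Foxd1 ENLWT cells, at a mean level of 79.6 RPKM, ahead of Snai1 at 25.1, Zeb2 at 14.1 and Twist1 at 13.7. Gata2 at 3.00 RPKM and Twist2 at 1.41 RPKM were the lowest there. Sorted Six2 ENLWT cells had another order. At E14.5 Snai2 also led, at 12.8 RPKM, but Zeb1 at 5.12 RPKM came next, and at E18.5 Zeb1 (6.13 RPKM) and Zeb2 (5.68 RPKM) stood above Snai2 (4.42 RPKM). Gata6 and Twist2 were lowest at both stages, with 0.221 and 0.0938 RPKM at E18.5.

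**Figure D1:**
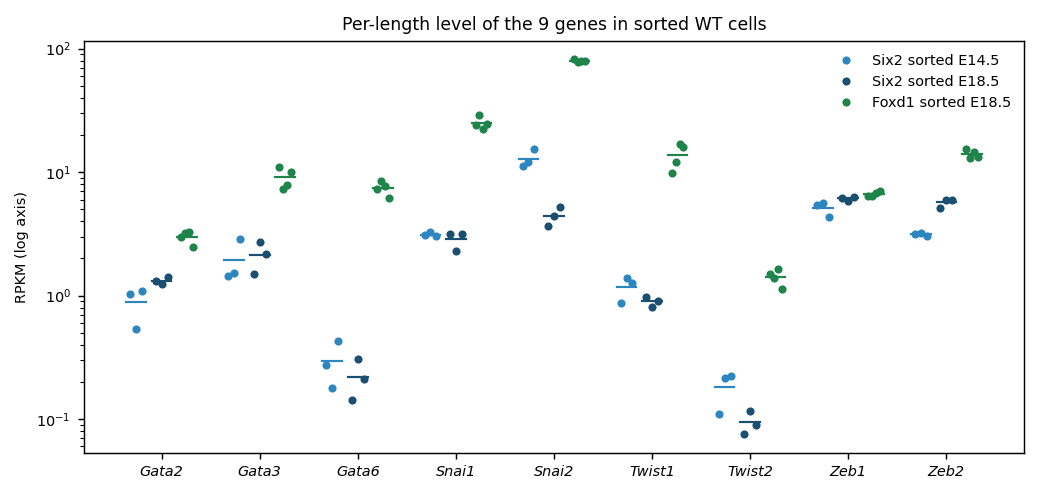
Level per gene length (RPKM, log axis) of the 9 genes in sorted ENLWT cells, with 1 point per library and a line at the mean of Six2 cells at E14.5 (3 libraries), Six2 cells at E18.5 (3) and Foxd1 cells at E18.5 (4). For Gata6 the Foxd1 mean is 7.44 RPKM and the Six2 means are 0.294 and 0.221 RPKM, while for Zeb1 the 3 means lie between 5.12 and 6.66 RPKM.

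Between E14.5 and E18.5, Snai2 fell in the control Six2 lineage and Zeb2 was higher at the later stage by less than the fold required. E14.5 kidneys were dissociated with trypsin and E18.5 kidneys with collagenase, so that stage and dissociation cannot be told apart in these differences. Snai2 stood at 22.5, 24.2 and 30.84 CPM in the E14.5 ENLWT libraries and at 7.402, 8.911 and 10.51 CPM at E18.5, a log2 difference of -1.53 ± 0.15 (adjusted p = 2.54e-07). It was the only member called at an adjusted p under 0.01 and over 2-fold, where 45.5% of all 25222 genes were called in either direction and 20.6% of all genes were called lower. Zeb2 went from 62.79, 64.62 and 60.39 CPM to 103.1, 119.2 and 117.7 CPM, with no overlap. Its log2 difference of 0.86 ± 0.07 (adjusted p = 2.12e-08) was under 2-fold. Twist2 had a log2 difference of -0.95 ± 0.35 and Gata2 one of 0.58 ± 0.22, with adjusted p values of 0.0253 and 0.0258. That of Twist2 was a call without E14.5 ENLWT replicate 1 (-1.21). DESeq2 size factors moved the median of all genes by 0.13 and scaling by library size only by -0.14, which leaves the call of Snai2 in place. Over the same interval, 16 of the 18 epithelial genes rose (Cldn4, 7.04, and Krt8, 5.37) and none fell, with a median of 2.54. Of 17 tested mesenchymal genes of the transition, 5 rose (Vim, 3.12) and none fell. Of all genes, 45.5% were called between the stages, and 54.67% of those called were higher at E18.5.

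The mutants differed from their controls in 2 to 5 members in sorted cells and in 1 or 2 in whole kidneys. At E14.5, 5 of the 9 rose in sorted Six2-ENLT1 cells (Gata2, Gata6, Snai2, Twist1 and Twist2) at an adjusted p under 0.05 and over 1.5-fold, where 4.11% of all 22387 genes rose and 6.4% changed in either direction. The median log2 difference was 1.52 for the members and 0.00 for all genes. At E18.5, 2 of the 9 rose in the same lineage (Gata2 and Snai2), where 6.14% of genes rose and 11.7% changed, with medians of 0.45 and 0.02. In sorted Foxd1-ENLT1 cells 1 rose (Gata2) and 3 fell (Gata6, Snai2 and Twist1), where 3.63% rose, 2.18% fell and 5.81% changed in either direction, with medians of -0.45 and 0.00. In whole kidneys 1 of 9 rose in Six2-ENLT1 (Snai2, background 2.88% up and 7.77% in all), 2 rose in Six2-ENLT3 (Snai2 and Zeb2, background 4.34% and 9.62%), and 1 fell in Foxd1-ENLT1 (Gata6, background 7.53% down and 10.2% in all). Both Six2 mutants were compared with the same ENLWT libraries. The member medians there were 0.21, 0.41 and -0.27, against all-gene medians of -0.01, 0.00 and 0.00. Neither Gata3, Snai1 nor Zeb1 was called in any of these 6 comparisons. In bulk RNA, fewer cells of a type and less RNA per cell cannot be told apart.

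**Figure D2:**
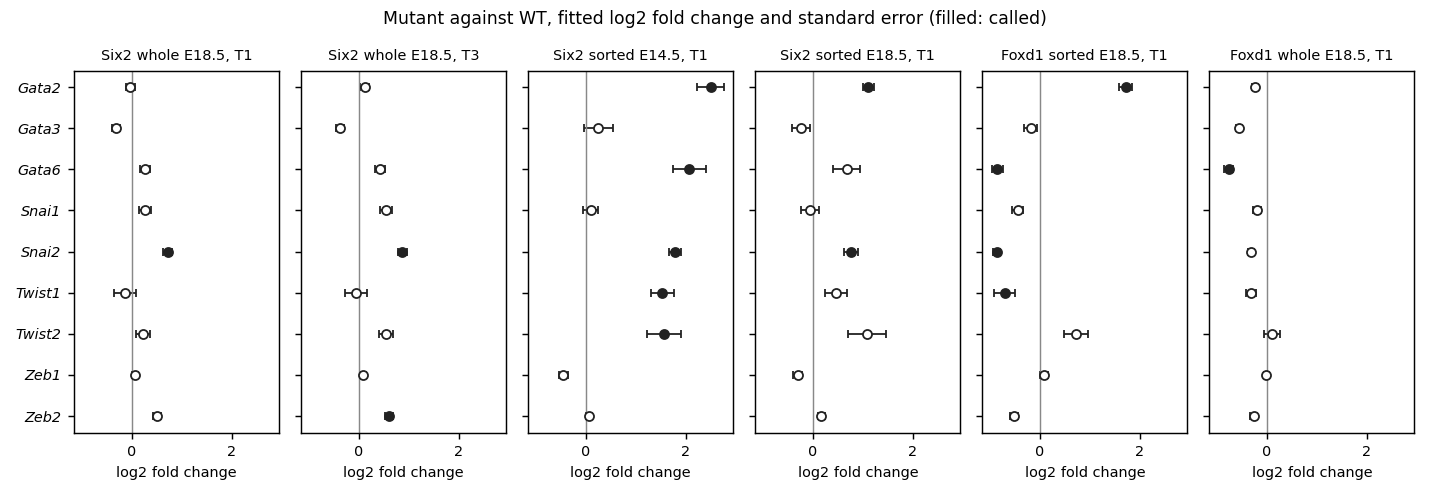
Fitted log2 fold change of each gene in the mutant against its ENLWT control in 6 comparisons, with the standard error as a bar and filled points for genes called at an adjusted p under 0.05 and over 1.5-fold. Gata2 lies at 2.49, 1.10 and 1.71 in the 3 kinds of sorted cells and near 0 in whole Six2 kidneys, and Snai2 lies above 0 in the 4 Six2 panels and below 0 in both Foxd1 panels.

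Gata2 rose in both lineages. Sorted E14.5 Six2 cells had 5.559, 2.889 and 5.839 CPM in ENLWT and 27.6, 20.59 and 30.96 CPM in Six2-ENLT1. Every mutant library lay above every control, by a log2 difference of 2.49 ± 0.27 (adjusted p = 0.000821). At E18.5 the levels were 7.036, 6.747 and 7.567 CPM against 14.08, 16.55 and 14.88 CPM, again without overlap, a log2 difference of 1.10 ± 0.11 (adjusted p = 1.04e-05). The effect at E18.5 was smaller than that at E14.5 by 1.38 ± 0.30 on the log2 scale (stage by genotype term of -1.38, adjusted p = 0.0119). Sorted Foxd1 cells went from 16.11, 17.51, 17.69 and 13.38 CPM to 45.22, 61.57, 47.83 and 57.43 CPM. The groups did not overlap, and the log2 difference was 1.71 ± 0.13 (adjusted p = 1.23e-07). The effect in Foxd1 cells exceeded that in Six2 cells of the same stage by 0.60 ± 0.18 (adjusted p = 0.0292), a call that was lost without any 1 of 7 of the 14 libraries (Six2 ENLWT replicate 3, Six2-ENLT1 replicates 1 and 3, Foxd1 ENLWT replicates 1 and 4, and Foxd1-ENLT1 replicates 2 and 4, adjusted p values between 0.0528 and 0.0857) and with scaling by library size only (0.51, adjusted p = 0.0648). In Six2-ENLT1 cells at E14.5 the mean level of 26.4 ± 5.29 CPM (SD, n = 3) lay above the 16.2 ± 1.99 CPM (n = 4) of control stroma at E18.5. The stages differ, the lineages were counted in separate tables, and this difference was not tested.

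Whole kidneys did not show this. Gata2 stood at 50.77 and 60.73 CPM in ENLWT, 53.86 and 54.82 CPM in Six2-ENLT1, and 63.42 and 57.04 CPM in Six2-ENLT3. Each mutant overlapped ENLWT, while both Six2-ENLT3 libraries lay above both Six2-ENLT1 libraries, and the log2 differences from ENLWT were -0.04 ± 0.09 (adjusted p = 0.855) and 0.11 ± 0.09 (adjusted p = 0.477). In the Foxd1 line, levels of 70.42, 80.96 and 68.29 CPM in ENLWT and 60.74, 62.87 and 62.27 CPM in Foxd1-ENLT1 gave a log2 difference of -0.24 ± 0.06 (adjusted p = 0.0115), under 1.5-fold. Over the 11 groups Gata2 was highest in whole kidneys and in sorted Foxd1-ENLT1 cells (means of 53.0 to 73.2 CPM) and lowest in sorted Six2 ENLWT cells (4.76 and 7.12 CPM). Whole kidneys and sorted cells were prepared with different library kits, which cannot be told apart from cell content in this order. The ranges of sorted Foxd1 ENLWT and E18.5 Six2-ENLT1 cells, 16.2 and 15.2 CPM on average, overlapped.

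Gata3 had higher mean levels in each whole kidney group than in any sorted group. Sorted cells were dissociated and prepared with another library kit than whole kidneys, so that preparation and cell content cannot be told apart in this difference. Its mean level was 92.9 ± 11.6 CPM (SD, n = 2) in whole Six2 ENLWT kidneys and between 7.14 and 9.10 CPM in all 4 groups of sorted Six2 cells, whose ranges overlapped. No change was called in sorted cells, where the log2 differences were 0.24, -0.24 and -0.19. In whole kidneys it was lower in each mutant with groups that did not overlap. It went from 84.71 and 101.1 CPM to 73.53 and 73.94 in Six2-ENLT1 (-0.33 ± 0.08, adjusted p = 0.0331) and to 71.07 and 71.37 in Six2-ENLT3 (-0.38 ± 0.08, adjusted p = 0.0168). In the Foxd1 line it went from 72.41, 67.2 and 68.93 CPM to 48.25, 48.13 and 44.93 CPM (-0.56 ± 0.06, adjusted p = 6.56e-06). All 3 were under 1.5-fold and were not calls. A list of ureteric tree genes moved with it in whole kidneys: its sum was 815.6 to 974.8 CPM in whole Six2 ENLWT kidneys, 640.7 to 658.7 in Six2-ENLT1 and 522.9 to 613.8 in Six2-ENLT3, and 957.6 to 1077 in Foxd1 ENLWT against 753.7 to 837.5 in Foxd1-ENLT1. Of its 10 genes, 2 fell in Six2-ENLT1 and 6 in Six2-ENLT3, while 2 fell and 1 rose in Foxd1-ENLT1. The list did not move with Gata3 in sorted E14.5 Six2 cells. Its sum there was 280.5 to 352.8 CPM in ENLWT and 208.4 to 223.1 CPM in Six2-ENLT1, while the log2 difference of Gata3 was 0.24. In the other sorted cells the sums overlapped between genotypes. No gene of that list was at 0, and its part in the Gata3 levels was not tested. Of the exon length of Gata3, 5.83% is shared with other genes.

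Gata6 moved in opposite directions in the lineages. In sorted E14.5 Six2 cells it rose from 1.793, 1.17 and 2.774 CPM to 8.962, 5.171 and 9.459 CPM, a log2 difference of 2.06 ± 0.33 (adjusted p = 0.00544) with no overlap. At E18.5 the same cells had 0.9348, 1.999 and 1.377 CPM in ENLWT and 2.132, 2.744 and 1.971 CPM in Six2-ENLT1. These overlapped and were not called (0.67 ± 0.27, adjusted p = 0.11), although the difference passed without the low-count filter (adjusted p = 0.0378) and without ENLWT replicate 2 (0.99, adjusted p = 0.0312). These sorted E18.5 levels rest on 74 to 219 counts. Sorted Foxd1 cells fell from the levels given above to 27.43, 27.29, 25.54 and 26.78 CPM, below every control, by 0.86 ± 0.11 on the log2 scale (adjusted p = 4.12e-05). The lineage by genotype term was -1.55 ± 0.27 (adjusted p = 0.000292). Whole Foxd1-ENLT1 kidneys fell as well, from 24.32, 28.35 and 24.57 CPM to 14.14, 16.86 and 14.36 CPM, without overlap (-0.77 ± 0.09, adjusted p = 2.05e-05). A list of 10 mesangial, pericyte and smooth muscle genes moved with Gata6 in these samples: its sum was 1577 to 1912 CPM in whole Foxd1 ENLWT kidneys against 959.5 to 1017 CPM in Foxd1-ENLT1 (4 of 10 fell, 0 rose), and 2056 to 2557 against 1567 to 1831 CPM in sorted cells (2 fell, 1 rose). None of the 10 was at 0, and their part in the Gata6 levels was not tested. Whole Six2 kidneys stood at 18.51 and 20.13 CPM in ENLWT, 20.9 and 25.32 CPM in Six2-ENLT1, and 25.78 and 25.41 CPM in Six2-ENLT3. Both mutants lay above the control, but by 0.26 ± 0.10 and 0.41 ± 0.10, neither of which was a call. The mesangial, pericyte and smooth muscle list did not move with Gata6 in the Six2 line. Its sum was 1877 to 1880 CPM in whole ENLWT kidneys, 1276 to 1328 in Six2-ENLT1 and 1254 to 1363 in Six2-ENLT3. In sorted E14.5 cells it was 398.2 to 488.8 against 298.7 to 314.1 CPM, and at E18.5 the genotypes overlapped. The effect on Gata6 in whole kidneys differed between the Cre lines by -1.04 ± 0.16 (adjusted p = 0.000956).

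**Figure D3:**
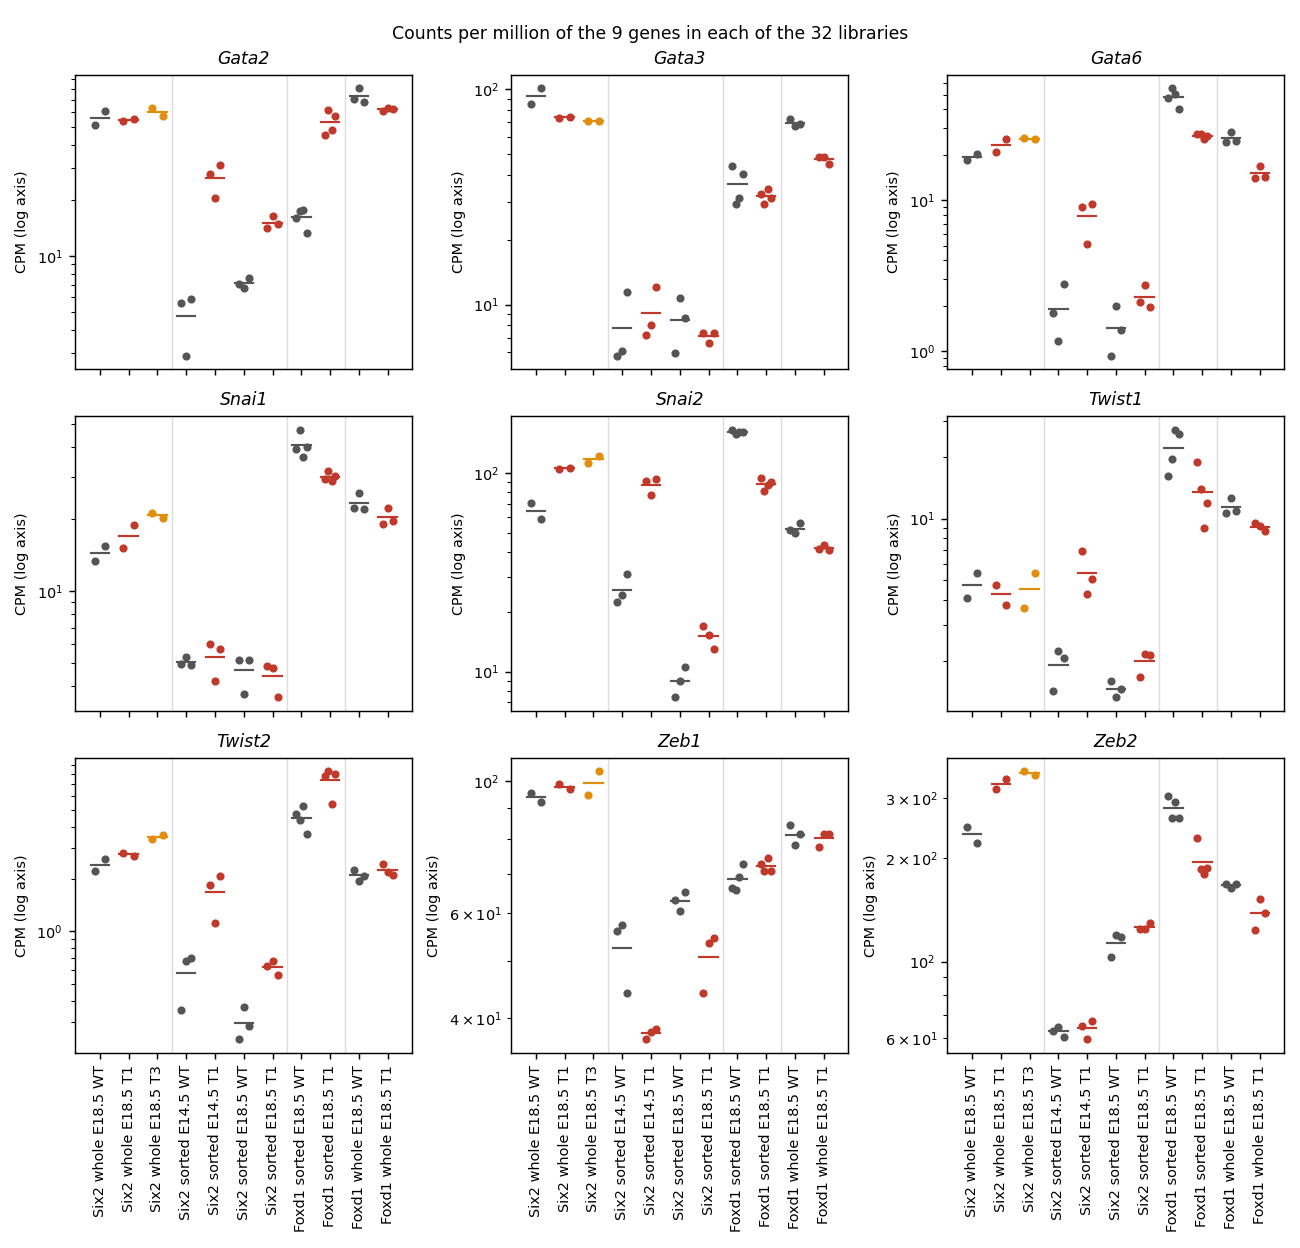
Level of each gene in CPM (log axis) in each of the 32 libraries, with 1 point per library and a line at the group mean, in grey for ENLWT, red for T1 and orange for T3. Snai2 is 77.49 to 93.33 CPM in sorted Six2-ENLT1 cells at E14.5 and 81.21 to 94.15 CPM in sorted Foxd1-ENLT1 stroma at E18.5. The E14.5 ENLWT Six2 cells lie below both (22.5 to 30.84 CPM) and E18.5 ENLWT stroma above both (156.7 to 165.3 CPM). Stage and sequencing run differ between these Six2 and Foxd1 cells, and their levels were not tested against each other.

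Snai2 was called in 5 of the 6 comparisons of a mutant with its control, more than any other member. In sorted E14.5 Six2 cells it rose to 91.35, 77.49 and 93.33 CPM, far above the control levels given above, by 1.77 ± 0.12 on the log2 scale (adjusted p = 0.000112). At E18.5 it rose to 17, 15.23 and 12.96 CPM, clear of the controls, by 0.76 ± 0.14 (adjusted p = 0.00169). The effect at E18.5 was the smaller (stage by genotype term of -1.00 ± 0.20, adjusted p = 0.00766). Gata2 and Snai2 were the only members called for that term, where 4.22% of all genes had a lower effect at E18.5 and 8.16% a different one. Gata6 (-1.37 ± 0.47, adjusted p = 0.096) and Twist1 (-1.06 ± 0.32, adjusted p = 0.0586) missed the threshold, but passed it with DESeq2 and without the low-count filter.

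In stroma Snai2 fell. Sorted Foxd1 cells had 165.3, 156.7, 160.4 and 161.3 CPM in ENLWT and 94.15, 81.21, 87.4 and 89.7 CPM in Foxd1-ENLT1. The 2 groups lay far apart, with a log2 difference of -0.87 ± 0.07 (adjusted p = 2.53e-07), and the lineage by genotype term was -1.65 ± 0.15 (adjusted p = 6.29e-08). For that term 6 of 9 members were called (2 up and 4 down), where 15.9% of all genes were called, 8.25% up and 7.63% down. Whole kidneys had the same directions. In the Six2 line Snai2 rose from 70.32 and 58.54 CPM to 104.9 and 105.8 CPM in Six2-ENLT1 (0.71 ± 0.09, adjusted p = 0.00178) and to 112.8 and 121.6 CPM in Six2-ENLT3 (0.86 ± 0.09, adjusted p = 0.000624). In the Foxd1 line it went from 51.34, 49.61 and 55.85 CPM to 41.29, 43.36 and 41.1 CPM (-0.32 ± 0.06, adjusted p = 0.0012), without overlap but under 1.5-fold. The Cre line by genotype term was -1.05 ± 0.10 (adjusted p = 3.09e-05), one of 3 members called for it with Gata6 and Zeb2, all 3 lower in the Foxd1 line, where 3.55% of genes were lower and 8.37% differed. The 2 Six2 mutants did not differ by test: for T3 against T1 no member was called (fitted differences of -0.05 for Gata3 to 0.33 for Twist2, on the log2 scale) and 1 of 23931 genes was (0.00418%). None of the 9 had an unadjusted p under 0.05 there, against 1720 of all genes, and edgeR's exact test and DESeq2 called 0 members each and 89 and 75 genes.

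Snai1, the other Snai factor, was not called in any mutant. Its levels in sorted Six2 cells overlapped between genotypes at both stages (4.899 to 5.301 CPM in ENLWT and 4.214 to 6.036 CPM in Six2-ENLT1 at E14.5). Stroma held more, with 39.17, 47.27, 36.19 and 40.15 CPM in sorted ENLWT and 29.28, 31.62, 28.77 and 30.33 CPM in Foxd1-ENLT1. These did not overlap, but the log2 difference of -0.45 ± 0.11 (adjusted p = 0.0123) was under 1.5-fold. In whole Six2 kidneys the levels were 13.36 and 15.38 CPM in ENLWT, 15.17 and 18.93 CPM in Six2-ENLT1, and 21.18 and 20.24 CPM in Six2-ENLT3. The Six2-ENLT3 libraries were the highest, by 0.53 ± 0.12 from ENLWT (adjusted p = 0.0236), just under 1.5-fold, and past it with scaling by library size only (0.60) and without ENLWT replicate 2 (0.65).

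Twist1 also rose in one lineage and fell in the other. It rose in sorted E14.5 Six2 cells from 1.419, 2.247 and 2.063 CPM to 6.924, 4.255 and 5.063 CPM, with no overlap (1.52 ± 0.23, adjusted p = 0.00419). At E18.5 levels of 1.592, 1.324 and 1.462 CPM in ENLWT and 1.675, 2.168 and 2.131 CPM in Six2-ENLT1 did not give a call (0.45 ± 0.22, adjusted p = 0.178). In sorted Foxd1 cells it fell from 16.11, 19.55, 27.34 and 26.04 CPM to 18.9, 13.98, 8.992 and 11.94 CPM. The groups overlapped, and the log2 difference of -0.71 ± 0.21 (adjusted p = 0.0369) was no longer a call without any 1 of 5 of the 8 libraries (ENLWT replicates 3 and 4 and Foxd1-ENLT1 replicates 2, 3 and 4, adjusted p values between 0.0865 and 0.126). These levels rest on 25 to 72 counts per library. The lineage by genotype term was -1.18 ± 0.31 (adjusted p = 0.00981). In whole kidneys its level was 4.25 to 4.73 CPM on average in the Six2 groups, which overlapped, and 11.4 ± 1.10 CPM against 9.14 ± 0.398 CPM (SD, n = 3) in ENLWT and Foxd1-ENLT1 (-0.32 ± 0.10, adjusted p = 0.0198, under 1.5-fold).

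Twist2 had the lowest level per length of the 9 in sorted control cells, and 46.5% of its exon length lies opposite the antisense gene Gm29100. Counting ignored strand, so reads from that stretch cannot be assigned to either gene. Twist2 values are uncertain for this reason, and so is its rank per length, which divides by the full exon length. Gm29100 itself had at most 70 counts in any library. In sorted E14.5 Six2 cells Twist2 rose from 0.3508, 0.6777 and 0.7031 CPM to 1.854, 1.121 and 2.068 CPM (1.56 ± 0.34, adjusted p = 0.0194). The groups did not overlap, but the call was lost without any 1 of 3 libraries (ENLWT replicate 2 and Six2-ENLT1 replicates 1 and 3, adjusted p values between 0.0511 and 0.0751). At E18.5 it stood at 0.24, 0.3692 and 0.2839 CPM in ENLWT and 0.6308, 0.6767 and 0.5593 CPM in Six2-ENLT1, apart but not called (1.07 ± 0.38, adjusted p = 0.071). The exact test of edgeR exact test called it (adjusted p = 0.03), as did scaling by library size only (adjusted p = 0.046). In sorted Foxd1 cells it had 4.723, 4.377, 5.227 and 3.617 CPM in ENLWT and 7.784, 8.32, 5.395 and 8.067 CPM in Foxd1-ENLT1. All mutant libraries were above all controls, in the opposite direction to Twist1, but the difference was not called (0.72 ± 0.24, adjusted p = 0.068) and rests on 10 to 25 counts per library. Whole Six2 kidneys stood at 2.22 and 2.589 CPM in ENLWT, 2.825 and 2.724 CPM in Six2-ENLT1, and 3.381 and 3.602 CPM in Six2-ENLT3. Both mutants lay above the control, by 0.21 ± 0.14 (adjusted p = 0.433) and 0.54 ± 0.14 (adjusted p = 0.0394, under 1.5-fold). The second was a call with scaling by library size only (0.61) and without ENLWT replicate 2 (0.67). In whole Foxd1 kidneys the genotypes overlapped (0.10 ± 0.16, adjusted p = 0.66).

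Zeb1 averaged between 37.8 and 99.3 CPM in the 11 groups. It was lower in sorted Six2-ENLT1 cells at both stages, by less than 1.5-fold. At E14.5 it stood at 55.99, 57.34 and 44.19 CPM in ENLWT and 36.91, 37.99 and 38.35 CPM in Six2-ENLT1 (-0.46 ± 0.09, adjusted p = 0.0152). At E18.5 it stood at 63.3, 60.47 and 65.07 CPM against 44.04, 53.58 and 54.57 CPM (-0.31 ± 0.09, adjusted p = 0.0223). Neither stage overlapped between genotypes. In sorted Foxd1 cells the groups overlapped, at 68.4 ± 3.26 and 72.1 ± 1.85 CPM (SD, n = 4), a log2 difference of 0.08 ± 0.08 (adjusted p = 0.616). The lineage by genotype term of 0.36 ± 0.12 (adjusted p = 0.0365) was lost without any 1 of 9 of the 14 libraries (Six2 ENLWT replicate 3, Six2-ENLT1 replicate 1, Foxd1 ENLWT replicates 1, 2 and 3, and each Foxd1-ENLT1 library, adjusted p values between 0.0639 and 0.0961), with scaling by library size only (adjusted p = 0.1) and without the low-count filter (adjusted p = 0.0584). In whole kidneys the largest difference from ENLWT was 0.08 ± 0.06, in Six2-ENLT3.

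Zeb2 rose in whole Six2-ENLT3 kidneys. It stood at 247.5 and 222.5 CPM in ENLWT, 318.2 and 341.7 CPM in Six2-ENLT1, and 358.8 and 349.8 CPM in Six2-ENLT3. Both mutants lay above the control, by 0.49 ± 0.08 (adjusted p = 0.00467, under 1.5-fold) and 0.59 ± 0.08 (adjusted p = 0.00168). The second is 1.51-fold and was not a call without ENLWT replicate 2 (0.54) or Six2-ENLT3 replicate 1 (0.58). In sorted Six2 cells Zeb2 overlapped at E14.5 and was 103.1, 119.2 and 117.7 CPM against 124.3, 124.6 and 130 CPM at E18.5 (0.16 ± 0.07, adjusted p = 0.119). Stroma had the opposite direction, with 304.2, 261.4, 292.7 and 262.3 CPM in sorted ENLWT and 229.1, 186, 180.2 and 187.5 CPM in Foxd1-ENLT1. The groups were apart by a log2 difference of -0.52 ± 0.08 (adjusted p = 0.00032), under 1.5-fold, and by more without the highest mutant library, replicate 1 (-0.61, a call). The lineage by genotype term was -0.70 ± 0.12 (adjusted p = 0.000192), and the Cre line by genotype term in whole kidneys was -0.78 ± 0.11 (adjusted p = 0.000817). Whole Foxd1 kidneys went from 168.6, 164 and 167.9 CPM to 123.4, 152.2 and 138.9 CPM (-0.27 ± 0.07, adjusted p = 0.00722), under 1.5-fold.

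Markers of other cell types moved with several of these changes. In sorted Six2 cells at E14.5, 10 of 12 stromal markers rose in Six2-ENLT1 (Dcn, 2.73, and Lum, 2.69) and Foxd1 fell (-0.96), and the list summed to 522.9 to 681.2 CPM in ENLWT and 1007 to 1962 CPM in Six2-ENLT1. At E18.5, 8 of the 12 rose (Lum, 2.03) and Foxd1 (-1.93) and Tcf21 (-0.93) fell, and the sum was 353.6 to 601.1 against 856 to 985.2 CPM. None of the 12 was at 0, and their part in the rise of Gata2, Gata6, Snai2, Twist1 and Twist2 was not tested. Control stroma was sampled at E18.5 only, and was sequenced in another run with another read length and counted in a separate table. Set beside it, the summed list in E14.5 Six2-ENLT1 cells lay below its lowest ENLWT stromal library of 7314 CPM. So did Snai2 (at most 93.33 against at least 156.7 CPM), Gata6 (9.459 against 40.15 CPM), Twist1 (6.924 against 16.11 CPM) and Twist2 (2.068 against 3.617 CPM). Of the 5 members that rose in E14.5 Six2-ENLT1 cells, only Gata2 lay above the highest control stromal library (at least 20.59 against at most 17.69 CPM). These differences across stage and run were not tested.

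Markers of the nephron lineage fell beside the same changes. In sorted Six2-ENLT1 cells 5 of 8 nephron progenitor genes fell at each stage, with 0 rising at E14.5 and 1 at E18.5, from sums of 1695 to 1995 CPM to 913.5 to 1102 CPM and from 644.1 to 821.3 CPM to 316.6 to 381.3 CPM. At E18.5 all 8 podocyte genes (3182 to 3718 CPM in ENLWT, 241.2 to 300.9 CPM in Six2-ENLT1) and all 8 proximal tubule genes (1679 to 2262 against 519.6 to 589.8 CPM) also fell in them. In whole Six2 kidneys all 8 podocyte genes fell in both mutants (from 1023 to 1154 CPM to 336.7 to 361.8 CPM in Six2-ENLT1 and 332 to 360.3 CPM in Six2-ENLT3), as did all 8 proximal tubule genes (from 3265 to 3976 CPM to 573.6 to 715.8 and 553.7 to 604.5 CPM). In whole Foxd1-ENLT1 kidneys 7 of 8 proximal tubule genes fell (from 3792 to 4015 CPM to 1810 to 2346 CPM) and no podocyte gene was called. None of these genes was at 0, and their part in the levels of Gata2, Snai2, Zeb2 and the other members was not tested.

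Macrophage genes, markers of cells that also use Zeb2, rose in whole Six2 kidneys (8 of 10 in both mutants, from 147.3 to 148.5 CPM in sum to 210.3 to 230.5 and 221.9 to 245.7 CPM), in sorted Six2 cells at E18.5 (8 of 10, from 37.49 to 40.47 CPM to 99.93 to 113.2 CPM) and in sorted Foxd1 cells (7 of 10, from 112.1 to 282.8 CPM to 291.4 to 388.8 CPM). In whole Foxd1 kidneys the macrophage sum was 134.3 to 146.8 CPM in ENLWT and 151.5 to 158.3 CPM in Foxd1-ENLT1. Zeb2 was lower in sorted and whole Foxd1-ENLT1 samples (-0.52 and -0.27), the opposite direction to the macrophage sums. None of the 10 macrophage genes was at 0, and their part in the Zeb2 and Snai2 levels was not tested. In sorted Foxd1 cells 4 of 12 stromal markers fell and 1 rose (Lum, 1.14), and the sum was 7314 to 9926 CPM in ENLWT and 7464 to 8445 CPM in Foxd1-ENLT1. Endothelial genes, which use Gata2, gave 0 or 1 calls of 10 in each comparison of a mutant with its control.

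**Figure D4:**
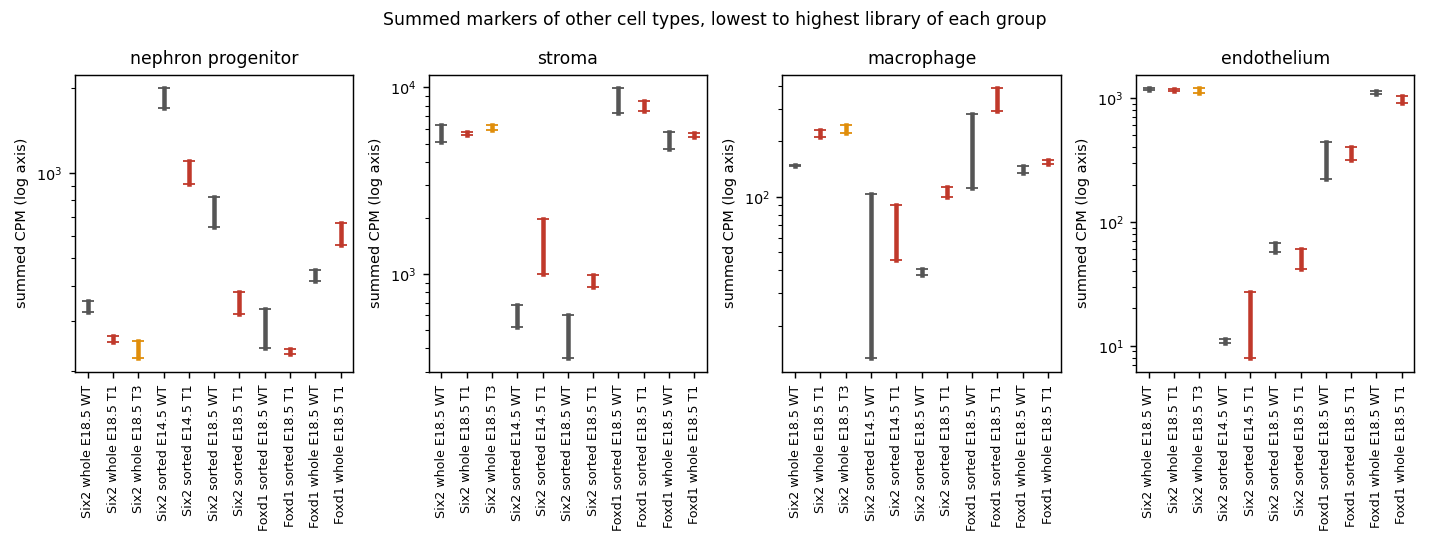
Summed level (CPM, log axis) of nephron progenitor, stromal, macrophage and endothelial marker lists, drawn from the lowest to the highest library of each group, in grey for ENLWT, red for T1 and orange for T3. Stromal markers are 1007 to 1962 CPM in sorted Six2-ENLT1 cells at E14.5 against 522.9 to 681.2 CPM in ENLWT, and 7314 CPM or more in sorted Foxd1 ENLWT cells at E18.5.

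The other genes of these pathways changed in part. Of 18 mesenchymal genes of the transition, 17 were tested in sorted Six2 cells, and 9 rose and 1 fell at E14.5 (Fap, 2.61, Postn, 2.53, and Tnc, -1.08), with a median log2 difference of 0.66 against 0.00 for all genes. At E18.5, 7 rose and 1 fell (median 0.26), and in sorted Foxd1 cells 1 rose and 1 fell (median 0.00). Of the 18 epithelial genes, 1 rose and 3 fell at E14.5 (Krt19, 1.38, against Dsp, -1.22, Esrp2, -1.14, and Cdh1, -0.88) and 1 rose and 3 fell at E18.5, with medians of -0.23 and -0.03. In whole kidneys 5 rose in Six2-ENLT1, 4 in Six2-ENLT3 and 4 in Foxd1-ENLT1, and none fell. Cldn3 (1.60, 2.14 and 1.37), Cldn4 (1.01, 0.97 and 0.86), Cldn7 and Krt19 rose in all 3. These whole-kidney T1 and T3 values share their control libraries. Of 10 other Gata factors and cofactors, Gata5 (1.91) and Zfpm2 (1.09), a partner of Gata factors, rose and Zfpm1 (-1.14) fell in sorted E14.5 Six2 cells, among 8 tested. Of 12 other mesenchymal factors, 10 were tested there, and 2 rose (Prrx1, 1.28, and Tcf15, 1.06) and 3 fell (Osr1, -1.17, Osr2, -0.97, and Foxc1, -0.95). Osr1 and Osr2 rose in sorted Foxd1 cells (0.84 and 1.73), where no other of the 8 tested was called. Among 7 E proteins and Id inhibitors, which bind or block Twist factors, Id1 (0.82) and Id2 (0.77) rose in sorted E14.5 Six2 cells, none changed at E18.5, and Tcf12 (-0.65) fell in sorted Foxd1 cells. Of 12 genes of TGF-beta signalling, which induces Snai and Zeb genes, Tgfb3 rose in sorted Six2 cells at both stages (0.80 and 0.99), Tgfbr3 fell at E18.5 (-1.77), and none was called in sorted Foxd1 cells.

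Across the 20 sorted libraries, the genes whose log2 CPM ran most like each member, by Pearson's r over 16253 genes, were Npy1r (0.922) and Fgf13 (0.921) for Gata2, Hopx (0.973) for Gata3, and Ecm1 (0.988) and Agtr2 (0.987) for Gata6. They were Tnnt1 (0.993) for Snai1, Lhfp (0.988) and Atoh8 (0.981) for Snai2, Ecm1 (0.982) for Twist1 and Fxyd7 (0.983) for Twist2. For Zeb1 the nearest was Camk2a (0.948) and for Zeb2 Rbms3 (0.986). Ecm1 and Agtr2 were the nearest 2 genes of both Gata6 and Twist1. The 20 points share 2 lineages, sequenced in separate runs.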

How the data were processed

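RNA-seq was done on whole embryonic kidneys and on tdT+ sorted cells (32 libraries, 4 count tables). Libraries of sorted cells were made with a kit for ultra-low RNA input and those of whole kidneys with a stranded mRNA kit. The authors aligned reads with HISAT2 2.1.0 to mm10 and deposited raw counts per gene from HTSeq 0.11.3, counted without strand. The annotation release was not given in the sources used here, and 55536 of 55806 identifiers were named from GENCODE vM21. Levels are CPM of the library total times its TMM factor, fitted per count table, or RPKM with the union of exons. Genes were filtered by filterByExpr (minimum count 10, total 15), scaled by TMM and tested over all genes with edgeR 4.0.16 (quasi-likelihood, Benjamini-Hochberg, R 4.3.3), separately per table except for comparisons across lineages or Cre lines. Mutants were called at an adjusted p under 0.05 and over 1.5-fold, stage and lineage at 0.01 and 2-fold, and interaction terms at 0.05 with no fold. The 9 genes and the gene lists were chosen with earlier results of these data known. Named genes of a list are examples among those called. Alternatives were edgeR's exact test, DESeq2 1.42.0, its size factors, library size only, no filter, a replicate block and each library left out. Tests were tried on simulated counts first. Figures were drawn with matplotlib 3.10.9.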

Additional observations from a re-analysis of the deposited data

Results flagged for a closer look

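In sorted Foxd1-ENLT1 cells, replicate 1 stood apart from the other 3 libraries for Zeb2, at 229.1 CPM against 180.2, 186 and 187.5 CPM. It was the only such case in 18 gene and group combinations of 4 libraries, where chance marks about 1 in 20. Its cause was not tested.

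Mutation effects that differed by an interaction term (edgeR's quasi-likelihood test, Benjamini-Hochberg adjusted p under 0.05) were found for 6 members. Between stages in sorted Six2 cells, Gata2 (-1.38) and Snai2 (-1.00) had the smaller log2 effect at E18.5. Between lineages at E18.5, the effect in Foxd1 cells was the higher for Gata2 (0.60) and Zeb1 (0.36) and the lower for Gata6 (-1.55), Snai2 (-1.65), Twist1 (-1.18) and Zeb2 (-0.70). Between Cre lines in whole kidneys, it was lower in the Foxd1 line for Gata6 (-1.04), Snai2 (-1.05) and Zeb2 (-0.78). Lineage and Cre line go with sequencing run. A run effect common to both genotypes cancels in the lineage and Cre line terms, but one that differs by genotype cannot be told apart from them.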

How the results depend on the processing

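For mutants against their controls, the calls of Gata2 and Snai2, and of Gata6 in sorted and whole Foxd1 samples and E14.5 Six2 cells, held under every alternative run. Scaling by library size only gave 4 members called in Six2-ENLT3 whole kidneys in place of 2 and turned the direction of uncalled log2 differences of Gata2 in Six2-ENLT1 (0.04) and Twist1 in Six2-ENLT3 whole kidneys (0.01), Snai1 in sorted E18.5 Six2 cells (0.02), Gata3 between stages (-0.03) and the lineage by genotype term of Gata3 (-0.06). DESeq2 and its size factors in edgeR turned that of Snai1 between stages (0.02). Without the low-count filter Zeb1 between lineages was -0.01. For Six2-ENLT3 against Six2-ENLT1, 1 gene was called, against 89 with the exact test, 75 with DESeq2 and 300 without the filter. For stage by genotype, DESeq2 and no filter called 4 members in place of 2, adding Gata6 and Twist1. For Cre line by genotype, 1910 genes were called, against 2883 with DESeq2 and 3130 without the filter. The share of called genes that were higher moved from 100% to between 69 and 77.5% for T3 against T1 (exact test, DESeq2 and no filter), from 48.3% to 59% (library size only) and 37.3% (no filter) for stage by genotype, from 49.2% to 38.9% (no filter) between lineages and from 51.9% to 37.6% (library size only) for lineage by genotype. The cause was not tested.

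With each library left out in turn, the genes called ranged from 1163 to 2092 for Six2-ENLT1 whole kidneys, from 0 to 16 for T3 against T1, from 1327 to 2176 for stage by genotype and from 914 to 3266 for Cre line by genotype. Members called ranged from 1 to 3 in Six2-ENLT3 whole kidneys and from 1 to 2 between stages. They ranged from 4 to 5 in sorted E14.5 Six2 cells, 2 to 3 in those at E18.5 and 3 to 5 in sorted Foxd1 cells. For the interaction terms the ranges were 2 to 3 (stage), 4 to 6 (lineage) and 3 to 4 (Cre line). Uncalled log2 differences that changed sign were, in Six2 whole kidneys, those of Gata2 (-0.16 to 0.12) and Twist1 (-0.34 to 0.08) in Six2-ENLT1, Gata2 (-0.01 to 0.27) and Twist1 (-0.37 to 0.2) in Six2-ENLT3, and Twist1 (-0.23 to 0.35) and Zeb1 (-0.05 to 0.08) between the mutants. In sorted Six2 cells they were those of Gata3 (-0.01 to 0.63) and Snai1 (-0.02 to 0.23) at E14.5, Snai1 at E18.5 (-0.22 to 0.04), and Gata3 (-0.06 to 0.5) and Snai1 (-0.17 to 0.07) between stages. The others were Zeb1 in whole Foxd1 kidneys (-0.05 to 0.01), Gata3 for lineage by genotype (-0.17 to 0.23), and Twist1 (-0.43 to 0.03) and Twist2 (-0.26 to 0.02) for Cre line by genotype.

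No set of same-numbered libraries had every correlation of deviations from the group means over 0.1 (-0.079 to 0.139 over 19 pairs), and the numbers were not taken as pairs. Libraries correlated best with their own number in 5 of 6 cases in sorted E14.5 Six2 cells (0.079, 0.017 and 0.139), a hint of pairing from the data alone, and in 0 of 6 in sorted E18.5 Six2 cells, 4 of 8 in sorted Foxd1 cells and 0 of 6 in whole Foxd1 kidneys. With the replicate number as a block, no count of calls moved by over 1.5 times, and of the members' calls only the Cre line by genotype term of Snai1 changed, to a call (-0.46, adjusted p = 0.024). Depth limits Twist2 and Twist1 most in sorted Foxd1 cells, where 3 counts are about 1 CPM.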
